A study of Mus musculus with 29 samples.

Results

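The genes described here are 8 members of the aryl hydrocarbon receptor (AhR) pathway, Ahr, Arnt, Ahrr, Cyp1a1, Cyp1a2, Cyp1b1, Tiparp and Aldh3a1, in mouse lung DNA. They were chosen by name, as the windows to which the deposited table of %DNAm gives one of these genes, and 53 of its 260686 windows met that rule. The assay was WGMS, sequencing of the whole genome after an enzymatic treatment that changes only unmethylated cytosines, so that methylated ones are still read as cytosine. A value of %DNAm is the mean methylation of a window of about 50 CpG dinucleotides in 1 library.

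The 29 libraries came from BALB/c offspring aged 13 weeks, all labelled female. The library labelled Sham replicate 1 had values in 1224 of 1230 windows of the Y chromosome, where the other 28 had 29 to 46, against that label. Dams were given fine particulate matter (PM2.5) collected at a roadside, dropped into the nose in saline before mating, through gestation and until weaning, or saline alone (Sham). Offspring were not given particles themselves. After sensitisation with ovalbumin (OVA) and alum they breathed an OVA aerosol, a model of allergic airways disease (AAD), or, as controls, they breathed saline. Whether the saline controls had been sensitised is not stated apart in the methods. Sham, Sham-OVA and PM had 7 libraries each and PM-OVA had 8 (n = 7, or n = 8 for PM-OVA, throughout). All libraries were of homogenised right lung. The labels do not tie offspring to dams, so the tests treat littermates, if any, as independent animals. In whole-lung DNA a shift in the mix of cells and a shift of methylation within cells cannot be told apart.

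The AhR is a transcription factor that is activated by small molecules, among them the polycyclic aromatic hydrocarbons of combustion particles. Without ligand it is held in the cytoplasm by heat shock protein chaperones. With ligand it enters the nucleus, pairs with ARNT and binds DNA elements whose core is GCGTG, and it raises transcription of enzymes that oxidise its own ligands. The repressor AHRR and the mono-ADP-ribosyltransferase TIPARP are themselves targets and feed back on the receptor. The core holds a CpG, so the element itself can carry methylation.

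Within the 53 windows, 150 copies of GCGTG were found on either strand, and 5.64% of their 2660 CpGs lay inside a copy, against 4.79% over all windows. The sequences below show where the core stands at the starts of Ahrr and Cyp1b1, in the richest stretch upstream of Cyp1a1, and what the CpGs of the most changed Ahr window look like. They are GRCm38, written 5′ to 3′ on the strand of the gene. Of the 8 members, 6 were matched in the RefSeq promoter table, and 28.4% of its 32536 promoters of 250 bases held at least 1 core. The Ahrr promoter held 3 copies, and 2.79% of promoters held at least as many. The Cyp1b1, Cyp1a1, Arnt and Tiparp promoters held 1 each, and the Cyp1a2 promoter held none of these letters. A match is a run of letters and not a shown binding site. In the first 3 sequences the capitals mark GCGTG, or CACGC where the core is on the other strand. In the 300 bases of Ahr intron they mark the 8 CpGs.
Ahrr promoter, chr13:74292332-74292581, minus strand: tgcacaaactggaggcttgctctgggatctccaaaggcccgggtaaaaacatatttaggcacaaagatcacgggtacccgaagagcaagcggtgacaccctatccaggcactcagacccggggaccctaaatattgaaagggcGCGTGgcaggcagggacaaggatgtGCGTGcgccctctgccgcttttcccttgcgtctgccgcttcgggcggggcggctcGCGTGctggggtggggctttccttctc
Cyp1b1 promoter, chr17:79715062-79715311, minus strand: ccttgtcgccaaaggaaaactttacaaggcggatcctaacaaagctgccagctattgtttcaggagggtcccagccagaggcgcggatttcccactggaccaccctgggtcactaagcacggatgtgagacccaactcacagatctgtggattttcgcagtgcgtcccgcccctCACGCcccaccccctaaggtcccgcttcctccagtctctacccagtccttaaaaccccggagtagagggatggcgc
Cyp1a1 upstream, chr9:57696110-57696409, plus strand: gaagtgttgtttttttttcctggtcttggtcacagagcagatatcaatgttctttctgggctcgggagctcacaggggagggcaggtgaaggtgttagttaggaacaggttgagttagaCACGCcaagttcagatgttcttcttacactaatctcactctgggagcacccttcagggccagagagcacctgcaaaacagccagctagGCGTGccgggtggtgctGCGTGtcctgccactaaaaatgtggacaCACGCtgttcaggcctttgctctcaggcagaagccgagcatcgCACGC
Ahr intron, chr12:35515168-35515467, minus strand: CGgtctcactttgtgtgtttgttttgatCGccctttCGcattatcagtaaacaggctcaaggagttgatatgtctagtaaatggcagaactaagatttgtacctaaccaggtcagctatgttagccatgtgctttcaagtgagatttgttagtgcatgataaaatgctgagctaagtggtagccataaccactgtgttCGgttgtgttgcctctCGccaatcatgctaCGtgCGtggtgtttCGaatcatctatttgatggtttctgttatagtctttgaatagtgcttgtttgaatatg

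The Cyp1a1 stretch lies 1204 to 1503 bases before the first base of the RefSeq transcript. It was picked, over every starting position in the window Cyp1a1 2, as the 300 bases with the most copies of the core, 5. Other member windows were not searched for it. Of 4801480 fixed stretches of 300 bases, laid end to end over all windows, 0.0515% held at least as many and 10.6% held at least 1. A best position is not like a fixed stretch, so 0.0515% does not measure how rare this stretch is. The window around it, Cyp1a1 2, held 11 copies, a count reached by 0.444% of windows. The Cyp1b1 promoter lies wholly in the window Cyp1b1 1, whereas only 77 bases next to the Ahrr start fall in Ahrr 1. Windows are numbered along each gene from its start, so that Ahr 6 is the window listed sixth.

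The genes differed in level, and windows at the start were low in some genes and not in others. In Sham offspring the mean over the windows of a gene was lowest for Cyp1b1 (38.4% ± 0.566 SD, n = 7) and Ahr (47.9% ± 0.975), and highest for Arnt (76.6% ± 0.401) and Cyp1a2 (85.7% ± 0.960). Between them stood Cyp1a1 (58.0%), Ahrr (64.5% ± 0.520), Tiparp (65.3% ± 0.662) and Aldh3a1 (71.7%), and of these neighbours Ahrr and Tiparp did not differ beyond their spread. The window that holds the annotated start stood at 0.789% in Arnt (Arnt 1), 2.31% in Cyp1b1 (Cyp1b1 1) and 16.6% in Ahr (Ahr 1), with 0.184% in the next window, Ahr 2. The start window of Ahrr stood at 43.6%, and that of Cyp1a2 at 85.4%. Tiparp's own start falls in a window that the table names 4931440P22Rik, with 0.216% in Sham, and Aldh3a1's in one named Rps13-ps5, with 81.1%. GENCODE starts Cyp1a1 upstream of the RefSeq transcript, so its start window (Cyp1a1 1) is not at the usual promoter, which lies in Cyp1a1 3 (52.5%).

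**Figure D1:**
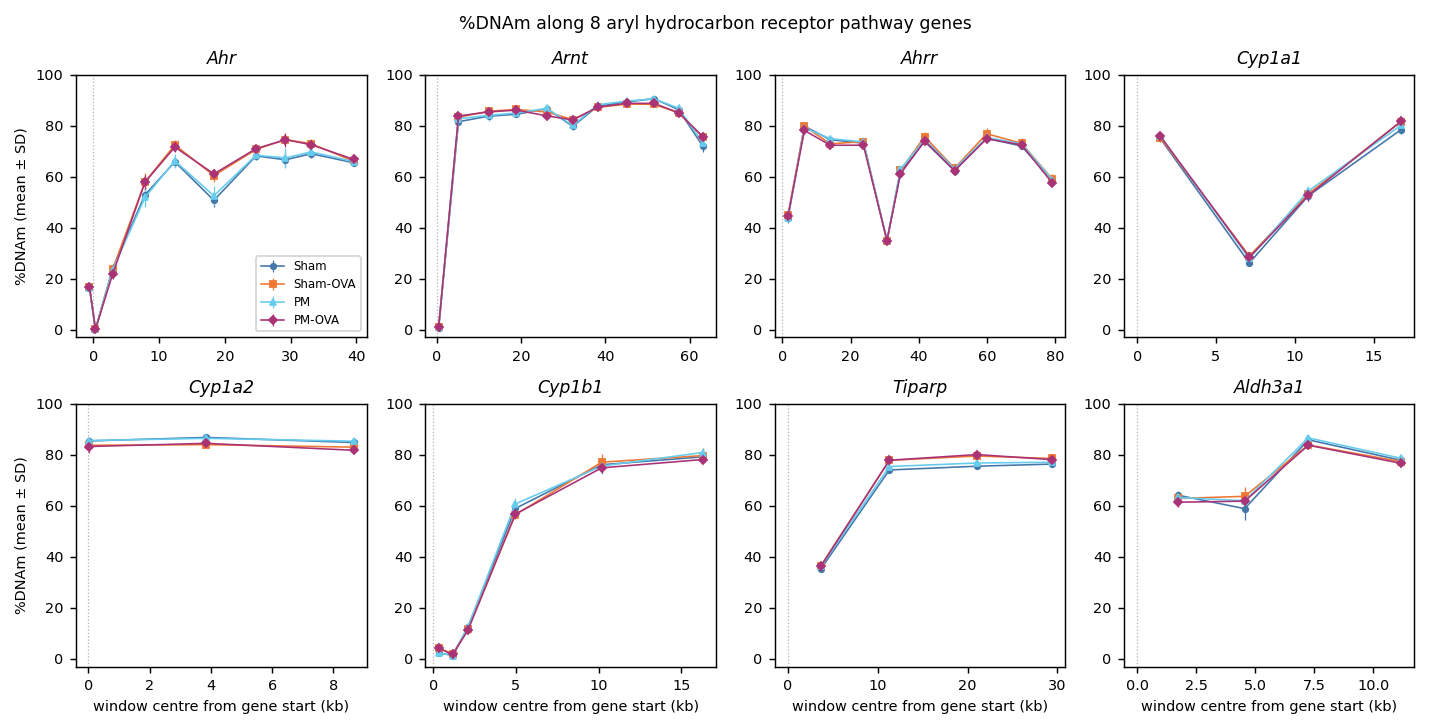
Mean %DNAm ± SD of the 4 groups (vertical axis, percent) in each member window, against the distance of the window's centre from the annotated gene start in kb, with 1 panel a gene. Arnt and Cyp1b1 fall to near 0% in the window that holds their start and Ahr in the next one, Ahr 2, Cyp1a2 lies over 80% throughout, and the groups separate most inside Ahr, where both OVA groups lie above both unchallenged groups.

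OVA challenge was compared first in Sham offspring, then in PM offspring, and differences are given in percentage points of %DNAm with 95% confidence intervals. In Sham offspring 23 of the 53 windows passed an adjusted p of 0.05 in limma (18 higher and 5 lower after OVA), where 35.6% of all 259167 tested windows passed (13.3% higher and 22.3% lower). The median difference of the members was 0.674 points, against -0.414 over all windows. In PM offspring 24 windows passed (11 higher and 13 lower), against 44.1% of all windows (9.26% higher and 34.8% lower), with a median of -0.160 points against -1.03. With each library shifted to the same median the counts were 22 higher and 2 lower in Sham, against 18.5% higher and 18.4% lower over all windows. In PM they were 21 higher and 4 lower, against 21.8% and 20.4%. Centring itself sets the directions over all windows near even, and among the members it moved the balance most in PM offspring. By this test no member was a differentially methylated region (DMR), defined as an adjusted p under 0.05 with a difference of at least 10 points, where 0.775% and 0.584% of all windows were. The study, by its own test with a stricter adjusted p, lists Ahr among genes of endothelial cells with DMRs found only in Sham offspring. At a minimum of 5 points 4 of the 53 windows (7.55%) qualified in each comparison, all of them in Ahr, near the 5.96% and 5.89% of all windows.

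**Figure D2:**
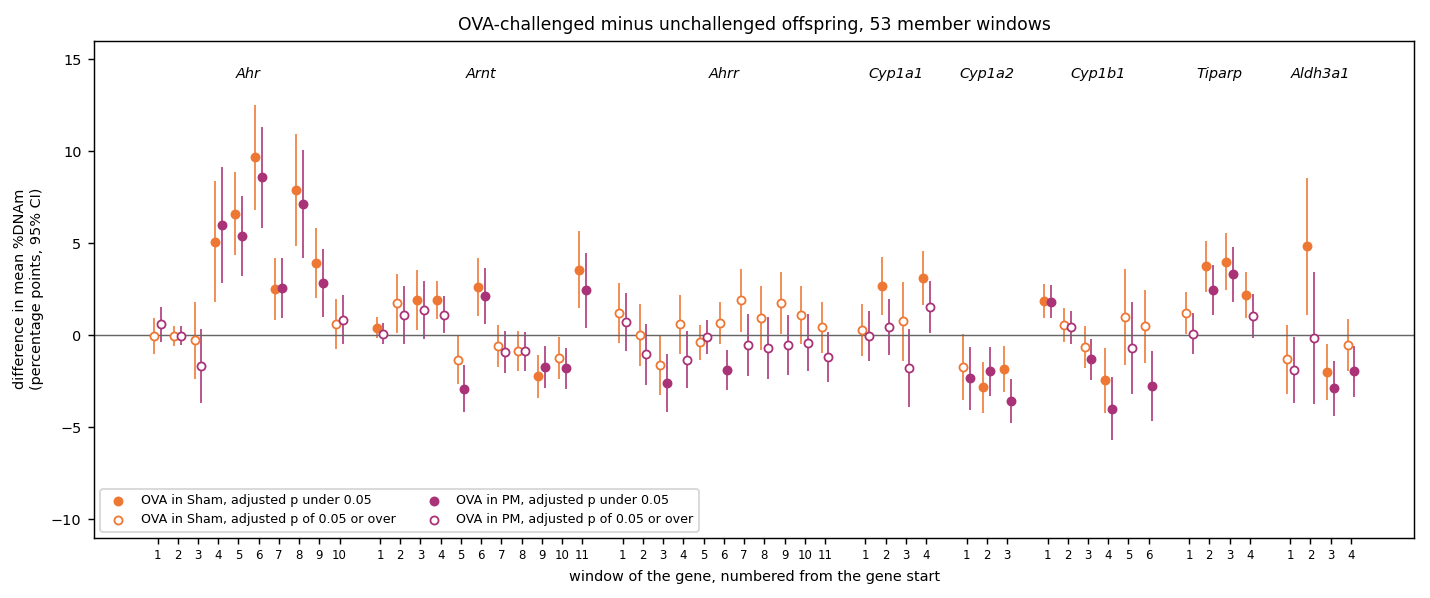
Difference in mean %DNAm between OVA-challenged and unchallenged offspring (percentage points, with 95% confidence intervals) for the 53 windows in gene order. Filled points passed an adjusted p of 0.05. The run of positive values in Ahr 4 to Ahr 9, up to 9.68 points in Ahr 6, stands out, while Cyp1a2 and most of Aldh3a1 lie below 0.

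Ahr, the receptor, gained methylation inside the gene and, before libraries were centred, not at its start. In each comparison 6 of its 10 windows rose, Ahr 4 to Ahr 9, and none fell. Over all windows 13.3% rose and 22.3% fell in Sham offspring, and 9.26% rose and 34.8% fell in PM offspring. Ahr 6 (chr12:35513125-35520265, 7141 bp, mostly intron with 719 exonic bases) ranged from 48.0% to 55.0% in Sham (median 51.2%) and from 57.5% to 65.0% in Sham-OVA (median 59.7%). These groups did not overlap. PM libraries ranged from 48.6% to 59.4% (median 52.3%) and PM-OVA libraries from 58.4% to 64.5% (median 60.5%), where 1 PM library stood within the PM-OVA range. Ahr 6 rose from 50.7% ± 2.60 to 60.4% ± 2.47 in Sham offspring, by 9.68 points (6.83 to 12.5, adjusted p = 7.91e-06), and from 52.5% ± 3.71 to 61.1% ± 1.99 in PM offspring, by 8.58 points (5.83 to 11.3, adjusted p = 1.65e-05). It lay just under the 10 points of a DMR in Sham offspring and passed that minimum without Sham replicate 4 (10.4 points), Sham-OVA replicate 3 (10.01 points) or Sham-OVA replicate 7 (10.2 points).

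The neighbours of Ahr 6, and Ahr 2 at the start, were chosen for mention after their values were seen. Ahr 8, with 1015 exonic bases, rose by 7.91 points in Sham offspring (adjusted p = 0.000139) and by 7.13 points in PM offspring (adjusted p = 0.000214). Ahr 5, which holds no exon, rose by 6.61 and 5.41 points (adjusted p = 4.01e-05 and 0.00022), and Ahr 4 by 5.09 and 5.99 points (adjusted p = 0.0154 and 0.00309). Ahr 7, directly next to Ahr 6, rose less, by 2.53 and 2.58 points (adjusted p = 0.0229 and 0.014). Ahr 9 rose by 3.94 and 2.83 points (adjusted p = 0.00221 and 0.0162). At the gene start no window passed before libraries were centred. Ahr 1, which holds the annotated start and 1306 bases upstream of it, had means of 16.6%, 16.6%, 16.3% and 16.9% in Sham, Sham-OVA, PM and PM-OVA, and the OVA differences were -0.0183 points (-0.998 to 0.962) and 0.594 points (-0.355 to 1.54). Ahr 2, with 298 exonic bases, stayed between 0% and 0.850% in all 29 libraries. With the libraries centred, an additive shift to which values near 0% are most exposed, 9 of 10 Ahr windows passed as higher in PM offspring and 6 in Sham. The start windows Ahr 1 and Ahr 2 were among the 9 in PM offspring. Over all windows 21.8% and 18.5% were then higher.

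Over the 29 libraries, the windows of other genes whose %DNAm ran closest to that of Ahr 6 were in Smad6 (Pearson r = 0.952), Denn2b as the table spells it (0.949), Map4k3 (0.949), Ubr4 (0.949) and Ccser2 (0.947), out of 258503 windows with a value in every library. These 5 windows differed after OVA by 12.7 to 16.6 points in Sham offspring and by 11.1 to 14.995 points in PM offspring. The libraries share the OVA difference, so the likeness is a description of it.

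Arnt, the dimer partner without which the activated receptor does not bind its element, was highly methylated outside its start. In Sham offspring 5 of its 11 windows rose and 1 fell with OVA, and in PM offspring 2 rose and 3 fell, which became 6 rising and 1 falling in both when libraries were centred. Of all windows 13.3% rose and 22.3% fell in Sham offspring, and 9.26% and 34.8% in PM offspring. With libraries centred these shares were 18.5% and 18.4% in Sham and 21.8% and 20.4% in PM. The start window Arnt 1 (chr3:95434252-95435390) ranged from 0.310% to 1.30% in Sham and from 0.872% to 1.62% in Sham-OVA, with medians of 0.856% and 1.27%. Its groups overlapped, and it rose from 0.789% ± 0.385 to 1.20% ± 0.282 (log2 ratio 0.32 ± 0.12 SE, adjusted p = 0.0328). That call was lost with an offset of 5 points, with the 2 groups alone and on the percent scale (adjusted p up to 0.267), and without Sham replicate 1, 5 or 6 or Sham-OVA replicate 1, 2 or 6 (adjusted p up to 0.0922), and in PM offspring the difference was 0.0951 points (adjusted p = 0.712).

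At the other end of the gene, Arnt 11 (chr3:95494694-95500295), which also covers part of Ctsk, a cathepsin gene, rose from 71.9% ± 2.17 to 75.5% ± 2.17 in Sham offspring (3.56 points, 1.46 to 5.65, adjusted p = 0.00902). In PM offspring it went from 73.3% ± 2.08 to 75.7% ± 1.53 (2.44 points, adjusted p = 0.0493), a call lost without any 1 of 19 of the 29 libraries (adjusted p up to 0.125, without PM replicate 7) and with the replicate number as a block (adjusted p = 0.0544). Arnt 5 (chr3:95456633-95464286) moved the other way. It held 6 copies of the core, the most in the gene, and overlaps Gm42672. It fell from 86.7% ± 1.68 in PM to 83.8% ± 0.937 in PM-OVA (-2.90 points, -4.18 to -1.63, adjusted p = 0.000527), while in Sham offspring the difference was -1.32 points (adjusted p = 0.108). The difference between these OVA effects was -1.58 points (-3.41 to 0.253) and did not pass (interaction adjusted p = 0.719).

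Ahrr, the repressor that competes with the receptor for ARNT, had no window that passed in Sham offspring and 2 of 11 that fell in PM offspring. Over all windows 35.6% passed in Sham offspring and 34.8% fell in PM offspring. Ahrr 6 (chr13:74255373-74260012) ranged from 61.5% to 64.3% in PM (median 62.9%) and from 59.8% to 62.5% in PM-OVA (median 61.0%). The ranges overlapped, and the mean fell by 1.89 points (-2.97 to -0.804, adjusted p = 0.0163). In Sham offspring the same window moved by 0.674 points (-0.447 to 1.79, adjusted p = 0.442). Ahrr 3, chosen after its values were seen, fell by 2.60 points in PM offspring (adjusted p = 0.00984) and moved by -1.63 points in Sham offspring (adjusted p = 0.131). With libraries centred neither passed in PM offspring, and 2 Ahrr windows passed as higher in Sham offspring, where 18.5% of all windows did. The start window Ahrr 1 (chr13:74288969-74292408) had means of 43.6% in Sham, 44.8% in Sham-OVA, 43.7% in PM and 44.4% in PM-OVA (adjusted p = 0.291 and 0.510). Ahrr 8, with 6 copies of the core the richest of the gene, moved by 0.950 and -0.696 points (adjusted p = 0.438 and 0.544).

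Cyp1a1, the cytochrome P450 that is the classic readout of the activated receptor and that oxidises polycyclic aromatic hydrocarbons, rose with OVA in 2 of 4 windows in Sham offspring and in none in PM offspring, or 1 in PM with libraries centred. Of all windows 13.3% rose in Sham offspring and 9.26% in PM offspring, or 21.8% in PM with libraries centred. The core-rich Cyp1a1 2 (chr9:57693234-57696843), which holds the upstream sequence printed above, ranged from 24.5% to 26.9% in Sham (median 26.4%) and from 27.8% to 31.2% in Sham-OVA (median 28.2%), without overlap. The mean rose from 26.1% ± 0.849 to 28.8% ± 1.33 (2.69 points, 1.11 to 4.27, adjusted p = 0.0105). PM libraries ranged from 25.4% to 30.6% (median 27.3%) and PM-OVA libraries from 25.7% to 30.8% (median 28.5%), and the difference was 0.456 points (-1.08 to 1.99, adjusted p = 0.657). The difference between these OVA effects was -2.23 points (-4.44 to -0.0306) and did not pass (interaction adjusted p = 0.684). Cyp1a1 4, over the 3′ end of the gene, rose by 3.12 points in Sham offspring (1.66 to 4.59, adjusted p = 0.00199) and differed by 1.56 points in PM offspring (adjusted p = 0.0695). Its OVA effects differed by -1.57 points (-3.61 to 0.473), which did not pass (interaction adjusted p = 0.766).

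Cyp1a2, the neighbouring P450 best known from the liver, had lower calls in both comparisons and no higher ones. In Sham offspring 2 of its 3 windows fell and in PM offspring all 3 did, where 22.3% and 34.8% of all windows fell. With libraries centred 1 of 3 fell in each, where 18.4% and 20.4% of all windows fell. Cyp1a2 3 (chr9:57672340-57677758) covers the 3′ end and holds 5 copies of the core. It ranged from 83.4% to 86.9% in PM (median 85.5%) and from 80.7% to 83.0% in PM-OVA (median 81.8%), without overlap, and fell from 85.3% ± 1.18 to 81.8% ± 0.879 (-3.57 points, -4.77 to -2.36, adjusted p = 2.52e-05). In Sham offspring it fell from 84.8% ± 1.06 to 83.0% ± 1.34 (-1.83 points, -3.08 to -0.589, adjusted p = 0.0201), a call lost with libraries centred (adjusted p = 0.0774). The start window Cyp1a2 1 fell by 2.33 points in PM offspring (adjusted p = 0.0263) and moved by -1.71 points in Sham offspring (adjusted p = 0.109). The PM call was lost without PM replicate 1, 4 or 7 or PM-OVA replicate 1 or 8 (adjusted p up to 0.0709), with libraries centred (adjusted p = 0.182) and with the replicate number as a block (adjusted p = 0.102).

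Cyp1b1, a P450 expressed outside the liver that also oxidises aromatic hydrocarbons, had an almost unmethylated start that rose with OVA in both arms. In Sham offspring 1 of its 6 windows rose and 1 fell, and in PM offspring 1 rose and 3 fell, which became 1 and 0 in Sham and 2 and 1 in PM when libraries were centred. Of all windows 13.3% rose and 22.3% fell in Sham offspring, and 9.26% and 34.8% in PM offspring. With libraries centred these shares were 18.5% and 18.4% in Sham and 21.8% and 20.4% in PM. Cyp1b1 1 (chr17:79714121-79715363, with the first exon and 302 bases upstream) ranged from 1.66% to 3.80% in Sham (median 2.09%) and from 3.54% to 5.71% in Sham-OVA (median 4.15%). In PM it ranged from 1.58% to 3.28% (median 2.42%) and in PM-OVA from 2.62% to 5.23% (median 4.58%). Of the Sham libraries 1 lay within the Sham-OVA range, and the PM groups overlapped too. The mean rose from 2.31% ± 0.719 to 4.16% ± 0.759 in Sham offspring (1.85 points, 0.933 to 2.77, log2 ratio 0.68 ± 0.13 SE, adjusted p = 0.000246) and from 2.32% ± 0.579 to 4.14% ± 0.918 in PM offspring (1.83 points, 0.936 to 2.71, log2 ratio 0.66 ± 0.13 SE, adjusted p = 0.000191). The OVA effects in Sham and PM offspring differed by -0.0258 points (-1.30 to 1.25). Cyp1b1 4 (chr17:79707929-79712279), with 2753 exonic bases, moved downwards. It fell from 58.9% ± 1.13 to 56.5% ± 1.19 in Sham offspring (-2.45 points, adjusted p = 0.0411) and from 60.7% ± 2.18 to 56.7% ± 1.82 in PM offspring (-3.98 points, -5.68 to -2.29, adjusted p = 0.000741). The Sham call was lost with libraries centred (adjusted p = 0.0783), without Sham replicate 1 (adjusted p = 0.0814), 3, 4 or 5, and without Sham-OVA replicate 1, 3, 5, 6 or 7 (adjusted p up to 0.0898). The other lower calls in PM offspring, named after their values were seen, were Cyp1b1 6 (-2.75 points, adjusted p = 0.0237) and Cyp1b1 3 (-1.30 points, adjusted p = 0.0416). Cyp1b1 5, the window of the gene with the most cores, moved by 0.993 and -0.690 points (adjusted p = 0.531 and 0.661).

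Tiparp, whose product adds ADP-ribose to proteins and limits AhR activity, rose with OVA in 3 of 4 windows in Sham offspring and in 2 of 4 in PM offspring, or 4 and 3 with libraries centred. Of all windows 13.3% and 9.26% rose, or 18.5% and 21.8% with libraries centred. Tiparp 3 (chr3:65544906-65554066) ranged from 73.7% to 77.3% in Sham (median 75.6%) and from 77.1% to 80.8% in Sham-OVA (median 79.7%). In PM it ranged from 74.5% to 79.2% (median 76.5%) and in PM-OVA from 76.8% to 81.8% (median 80.3%). The mean rose from 75.5% ± 1.21 to 79.5% ± 1.28 (4.00 points, 2.46 to 5.55, adjusted p = 0.000237) and from 76.8% ± 1.71 to 80.1% ± 1.47 (3.30 points, 1.81 to 4.80, adjusted p = 0.000704). Tiparp 1, the member window nearest the start and the one with the most cores of the gene (9), moved by 1.23 and 0.0963 points (adjusted p = 0.143 and 0.918).

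Aldh3a1, an aldehyde dehydrogenase induced through the receptor, had 1 of 4 windows that rose and 1 that fell in Sham offspring, and 2 that fell in PM offspring. Of all windows 13.3% rose and 22.3% fell in Sham offspring, and 34.8% fell in PM offspring. With libraries centred 1 rose in Sham and 1 fell in PM, where 18.5% of all windows rose in Sham and 20.4% fell in PM. Aldh3a1 3 (chr11:61213245-61216332, with 699 coding bases) ranged from 85.2% to 88.5% in PM (median 86.5%) and from 82.5% to 85.2% in PM-OVA (median 83.6%), without overlap. It fell from 86.6% ± 0.986 to 83.7% ± 0.975 (-2.88 points, -4.38 to -1.38, adjusted p = 0.00199). In Sham offspring it fell by 1.99 points (adjusted p = 0.0366), a call lost without Sham replicate 2, 4, 5 or 7 or Sham-OVA replicate 1, 3, 4 or 5 (adjusted p up to 0.107), with libraries centred (adjusted p = 0.0712) and with the 2 groups alone (adjusted p = 0.0956). Aldh3a1 2, chosen after its values were seen, rose by 4.83 points in Sham offspring (1.11 to 8.54, adjusted p = 0.0398), from 58.9% ± 4.42 to 63.7% ± 3.85, and differed by -0.160 points in PM offspring (-3.76 to 3.44). The difference between these effects, -4.99 points (-10.2 to 0.182), did not pass (adjusted p = 0.685). Aldh3a1 4, also named after its values were seen, fell by 1.96 points in PM offspring (adjusted p = 0.0247). Aldh3a1 1, next to the start and with 7 copies of the core, moved by -1.30 and -1.87 points (adjusted p = 0.297 and 0.106).

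**Figure D3:**
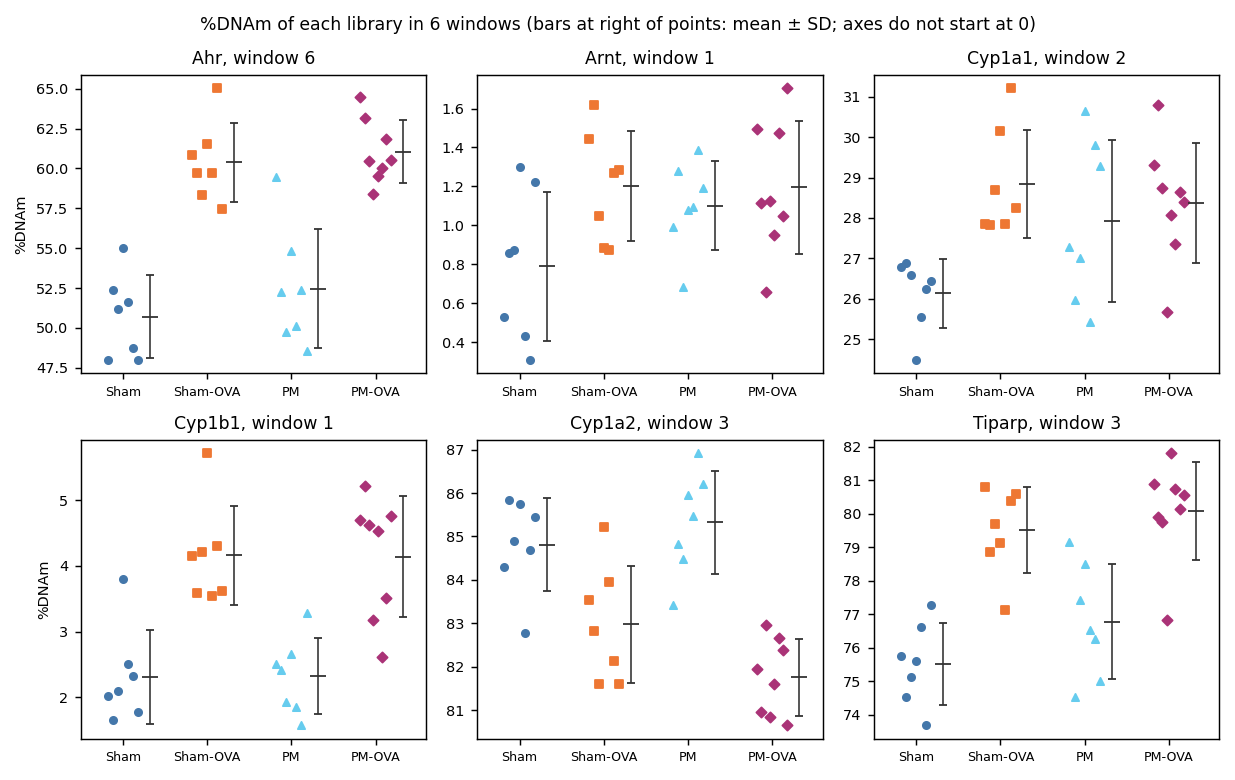
%DNAm (percent) of each library in 6 windows, with the mean ± SD of each group as a bar to the right of its points, on axes that do not start at 0. In Ahr 6 all 7 Sham libraries lie under all 7 Sham-OVA libraries, in Cyp1a1 2 the same holds while PM and PM-OVA spread over one range, and in Cyp1a2 3 all 8 PM-OVA libraries lie under the 7 PM libraries.

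Maternal PM2.5 exposure was compared with Sham in unchallenged and in challenged offspring, since the receptor answers to combustion products. No member window passed in either comparison by limma, where 0% of all windows passed, and no interaction passed. At an unadjusted p under 0.05 there were 3 of 53 windows without OVA, 3 with OVA and 2 for the interaction, against 5.79%, 5.96% and 7.4% of all windows. The median difference of the members was 0.475 points without OVA (all windows 0.265), -0.276 points with OVA (all windows -0.308) and -0.968 points for the interaction (all windows -0.586). Single differences ran from -0.999 to 3.103 points without OVA and from -2.21 to 0.706 points with OVA.

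The intervals give the range of PM differences left by these libraries, and it was not narrow against the OVA differences everywhere. Without OVA the upper bound was 6.82 points in Aldh3a1 2, 3.36 points in Cyp1a1 2 and 3.23 points in Cyp1a1 4, each above that window's OVA difference in Sham offspring. For Ahr 6 the PM difference was 1.77 points (-1.08 to 4.61) without OVA and 0.675 points (-2.08 to 3.43) with OVA, with upper bounds under the OVA differences of that window. The Cyp1b1 start differed by 0.00826 points (-0.910 to 0.926) and -0.0176 points (-0.906 to 0.871). For Ahr 1 the values were -0.278 points (-1.26 to 0.702) and 0.334 points (-0.615 to 1.28).

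Without OVA 64.8% of all tested windows and 42 of the 53 members (79.2%) were higher in PM than in Sham, none of them past the threshold. With libraries centred these became 49.2% and 35 of 53, the all-window share being set near even by the centring itself. By gene 6 of 10 windows of Ahr were higher, 10 of 11 of Arnt, 9 of 11 of Ahrr, 2 of 3 of Cyp1a2, 4 of 6 of Cyp1b1 and 3 of 4 of Aldh3a1, with medians from 0.0466 to 0.777 points. All 4 windows were higher in Tiparp (0.709 to 1.34 points, median 1.11) and in Cyp1a1 (0.968 to 1.90 points, median 1.77), also with libraries centred. The smallest p of this comparison was at Cyp1a1 4 (chr9:57700823-57708499), which ranged from 76.8% to 80.4% in Sham (median 78.0%) and from 78.9% to 81.6% in PM (median 79.6%). Its difference of 1.76 points (0.296 to 3.23) did not pass (adjusted p = 0.850). Cyp1a1 2 differed by 1.78 points (0.196 to 3.36, adjusted p = 0.854), with Sham between 24.5% and 26.9% and PM between 25.4% and 30.6%. In challenged offspring the same windows differed by 0.194 and -0.455 points. The Sham libraries of this comparison are also the controls of the OVA comparison in Sham offspring.

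With OVA 66.8% of all tested windows and 36 of the 53 members (67.9%) were lower in PM-OVA than in Sham-OVA, or 51.2% and 25 of 53 with libraries centred. By gene 6 of 10 windows of Ahr were lower, 5 of 11 of Arnt, 10 of 11 of Ahrr (median -1.40 points, or -1.11 centred), 2 of 4 of Cyp1a1, 2 of 3 of Cyp1a2, 5 of 6 of Cyp1b1, 2 of 4 of Tiparp and 4 of 4 of Aldh3a1. The smallest p with OVA was at Ahrr 9 (chr13:74227018-74237838), where Sham-OVA ranged from 74.2% to 80.5% (median 76.6%) and PM-OVA from 73.1% to 76.6% (median 74.8%). These overlapped, and the difference of -1.99 points (-3.61 to -0.361) did not pass (adjusted p = 0.817). The smallest interaction p was at Ahrr 6, where the OVA effect was 0.674 points in Sham against -1.89 points in PM offspring, a difference of -2.56 points (-4.12 to -1.003) that did not pass (adjusted p = 0.582). Over the 53 windows 45 interactions were negative (84.9%), as were 71.6% over all windows, or 34 of 53 and 50.5% with libraries centred.

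**Figure D4:**
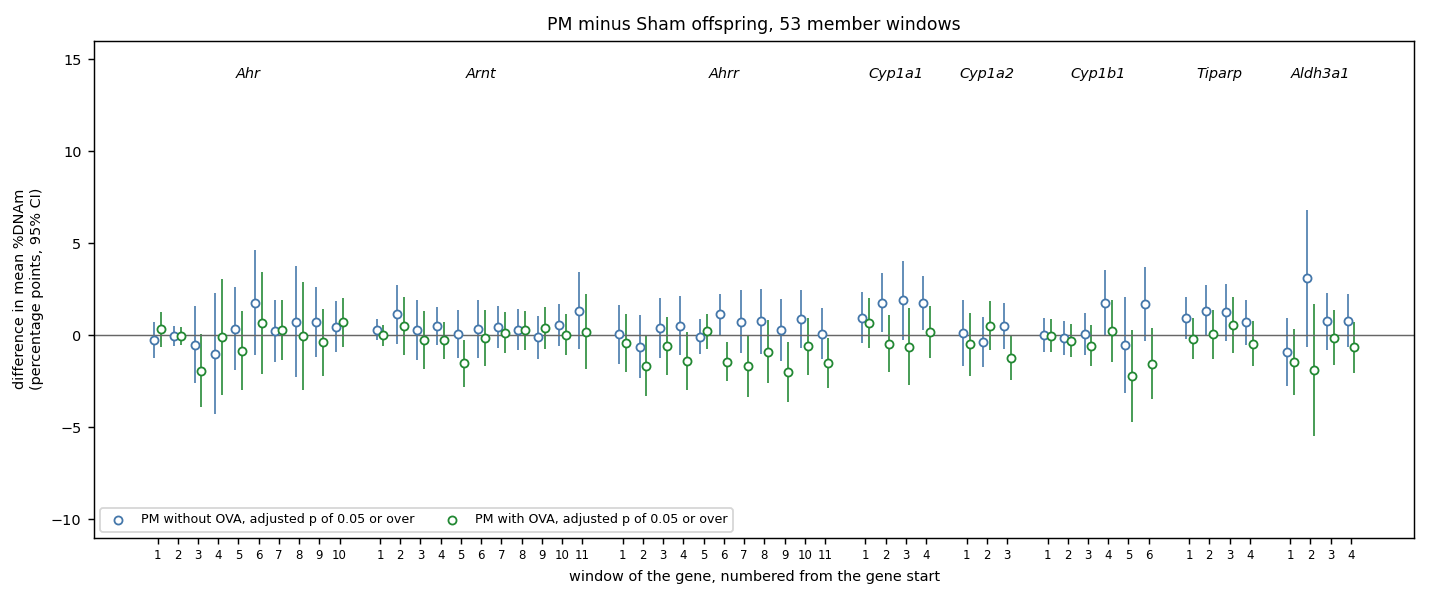
Difference in mean %DNAm between PM and Sham offspring (percentage points, with 95% confidence intervals) for the same 53 windows, without and with OVA, on the scale of the plot of OVA differences. No window passed an adjusted p of 0.05, 42 of the 53 points lie above 0 without OVA, all those of Cyp1a1 and Tiparp among them, and 36 lie below 0 with OVA, 10 of the 11 Ahrr points among them.

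Other genes of the pathway were taken from a list of 28 chaperones, dimer partners, coregulators, targets and enzymes, of which 25 had windows, 367 in all. With OVA 134 of them passed in Sham offspring (71 higher and 63 lower), or 36.5% against 35.6% of all windows, and 150 in PM offspring (59 higher and 91 lower), or 40.9% against 44.1%. Over all windows 13.3% rose and 22.3% fell in Sham offspring, and 9.26% rose and 34.8% fell in PM offspring. Among chaperones and dimer partners 3 of 72 windows rose (4.17%) and 28 fell (38.9%) in Sham offspring, and 4 rose (5.56%) and 36 fell (50.0%) in PM offspring. Among coregulators 52 of 196 rose (26.5%) and 18 fell (9.18%), and 43 rose (21.9%) and 28 fell (14.3%). Among other targets and enzymes 16 of 99 rose (16.2%) and 17 fell (17.2%), and 12 rose (12.1%) and 27 fell (27.3%). These shares are a description, with no test of a list against the rest.

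Of the 367 windows 4 were DMRs in Sham offspring (1.09%, against 0.775% of all windows) and 2 in PM offspring (0.545%, against 0.584%). The one of these with the smallest difference was in Ncoa2, a coactivator (chr1:13363296-13368701), with a rise of 10.2 points in Sham (adjusted p = 2.76e-06) and 7.84 points in PM offspring (adjusted p = 3.92e-05). These effects differed by -2.39 points, which did not pass (interaction adjusted p = 0.80). Arnt2, a relative of Arnt, had the smallest OVA p in the list, in a window (chr7:84348374-84355428) that fell from 83.8% ± 0.931 to 78.4% ± 0.777 in Sham offspring (adjusted p = 9.75e-08) and from 83.4% ± 0.855 to 76.9% ± 1.40 in PM offspring (adjusted p = 3.37e-09).

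For maternal PM2.5 no window of the list passed. The smallest p without OVA was in Arntl, a clock gene of the same protein family (1.56 points, adjusted p = 0.696). With OVA, and for the interaction, it was in Nrip1, a corepressor (chr16:76293731-76295429), where OVA added 6.52 points in Sham but 1.84 points in PM offspring (interaction -4.68 points, adjusted p = 0.496).

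Several facts of the whole series stand beside these results. A list of 25 leucocyte genes, of which 24 had windows, moved with OVA. Their mean %DNAm was 69.5% (68.6% to 70.0%) in Sham, 67.2% (66.6% to 67.9%) in Sham-OVA, 69.7% (69.3% to 70.3%) in PM and 67.2% (66.6% to 67.6%) in PM-OVA, with 27 of 129 windows higher (20.9%) and 52 lower (40.3%) in Sham offspring and 22 higher (17.1%) and 58 lower (45.0%) in PM offspring. Windows of 25 genes of lung structural cells moved too. Their means were 64.8%, 65.8%, 65.3% and 65.3%, with 74 of 248 higher (29.8%) and 41 lower (16.5%) in Sham offspring and 57 higher (23.0%) and 67 lower (27.0%) in PM offspring. The shares over all windows stand above, beside the pathway list. The part of cell mix in the differences above was not tested. Percentages of methylation do not show expression, so the tissue label was not checked against marker expression. Libraries held values for 258952 to 260135 windows, and all member windows had a value in every library. Without the library labelled Sham replicate 1 the OVA calls among members numbered 20 (Sham offspring) and 23 (PM offspring), and the PM and interaction calls stayed at 0.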

How the data were processed

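Lung DNA of 29 libraries was profiled by WGMS. From the labels and methods, the authors used Trim Galore for trimming and the DRAGEN pipeline, against GRCm38, for alignment and methylation calls. The deposited values are percent methylation (%DNAm) per window, averaged by the authors in SeqMonk from per-base percentages over windows of 100 CpG cytosines on both strands. No scaling between libraries is described, replicates were not pooled, and the authors named 1 gene for each window. Read coverage is not in the table, so the depth behind a value is unknown here, no counting interval is given, and the number of libraries limits the precision.

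Windows with at least 3 values in every group were tested (259167; 1519 were not), with limma (version 3.58.1, R 4.3.3) on log2((percent + 1)/(101 - percent)), 4 group means, 2-sided contrasts and p-values adjusted over all these windows (Benjamini-Hochberg). The offset of 1 point on each side damps ratios near 0% and 100%. Confidence intervals of 95% come from the same fit on the percent scale, so a call near the threshold and its interval can differ. A DMR needed an adjusted p under 0.05 and at least 10 points. The study's own test was made with EdgeR, with library size among its covariates, an adjusted p under 1e-06 and at least 10 points. Exons and gene starts came from GENCODE M21 and promoters from RefSeq, both GRCm38.

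Members and lists were chosen with earlier results of these data known. Named windows were, by rule, the gene start of each member (or the nearest member window), the smallest p of each comparison, the largest OVA difference called in both arms, and the window with the most GCGTG. Other windows were chosen after their values were seen. Alternatives were an offset of 5 points, the percent scale, complete windows, centred libraries, the replicate number as a block, the groups of a comparison alone, an adjusted p of 1e-06, a minimum of 5 points and each library left out in turn. The test was checked on simulated data. Replicate numbers are those of the sample titles, which differ from the numbers in the library names for 10 of 29 libraries. Of 42 same-number pairs in different groups 3 correlated above 0.1, so numbers were not used to pair samples. The RNA data were not analysed here, and 1 gene of the pathway list is not reported here by name.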

Additional observations from a re-analysis of the deposited data

Results flagged for a closer look

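Of 84 groups of 7 or 8 libraries in the 21 named windows, 4 held a library that stood apart from the rest by Dixon's criterion, which chance gives for about 1 in 20 groups. In Cyp1b1 1 these were Sham replicate 4 at 3.80% (the others 1.66% to 2.504%) and Sham-OVA replicate 4 at 5.71% (the others 3.54% to 4.30%). Without them the OVA difference in Sham offspring was 2.10 and 1.59 points and stayed past the threshold. In Aldh3a1 1 PM replicate 2 stood at 60.2% (the others 62.8% to 64.8%), and in Tiparp 3 PM-OVA replicate 4 stood at 76.8% (the others 79.8% to 81.8%). Without the latter the OVA difference of Tiparp 3 in PM offspring was 3.77 points.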

How the results depend on the processing

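With each library left out in turn, the member windows past the threshold numbered 17 to 23 for OVA in Sham and 20 to 25 for OVA in PM, and 0 for each PM comparison and for the interaction. The lower calls for OVA in Sham went from 5 to 3 without Sham replicate 4 or 5 or Sham-OVA replicate 1, 3 or 5. Member DMRs numbered 0 to 1 for OVA in Sham, the 1 being Ahr 6, which was also a DMR with libraries centred (1 DMR, 10.1 points), and 0 in the other comparisons. At an adjusted p of 1e-06 there were 0 windows for OVA in Sham and 0 for OVA in PM. At a minimum of 5 points there were 4 DMRs for OVA in Sham and 4 for OVA in PM, 7.55% of the members against 5.96% and 5.89% of all windows. Centring moved the median difference of all windows from -0.414 to -0.0204 points for OVA in Sham and from -1.03 to -0.0534 points for OVA in PM. With the replicate number as a block the windows past the threshold numbered 23 for OVA in Sham (18 of them higher) and 22 for OVA in PM (10 of them higher). Among the named results the block ended the calls of Arnt 11 (adjusted p = 0.0544) and Cyp1a2 1 (adjusted p = 0.102) in PM offspring and changed no other call. Same-number pairs of libraries in different groups correlated from -0.0705 to 0.130 (median 0.0174, 42 pairs), other pairs from -0.133 to 0.134, and 9 of 29 libraries correlated best with one of their own number (6 by the numbers in the library names). Of the recomputed values of the 23 named results, 749 kept their direction and side of the threshold, 78 lost their call and none reversed. Those lost include every called result at an adjusted p of 1e-06, since the smallest adjusted p was 7.91e-06. Those kept include values of results that were never called. The calls of Arnt 11 in PM offspring, Cyp1b1 4, Aldh3a1 3 and Arnt 1 in Sham offspring and Cyp1a2 1 in PM offspring were among those lost when single libraries were left out. Depth per window is unknown, so a difference too small for the spread between libraries could not be told from none.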
